A study of Mus musculus with 24 samples.

Results

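The promoters of 1087 olfactory receptor genes were searched for peaks of 3 transcriptional regulators (TRs) in mouse embryonic cortex. A promoter was the 2000 bp upstream of a transcription start site (TSS). The genes are those protein-coding genes of chromosomes 1 to 19 in GENCODE vM21 whose symbol is Olfr followed by a number only. They make up 1087 of the 20807 autosomal protein-coding genes and carry 1086 distinct symbols. They were chosen by name, with no measured value in the rule. They lie on 16 chromosomes, with 280 on chromosome 2, 236 on chromosome 7 and 129 on chromosome 9.

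ChIP-seq, in which an antibody pulls down the DNA that a protein sits on, was carried out on dissected cortex of wild-type (WT) mouse embryos of 2 ages, E15.5 and E18.5 in embryonic days. The targets were ARID1B, which belongs to the BAF chromatin remodeler, the forkhead factor FOXP1, and TCF7L2, an effector of Wnt signaling that the sample labels call TCF4. Each TR and stage had 2 ChIP and 2 input libraries, 24 in all, with the study's wild-type strains kept on a CD1 background. Only 1 peak list for each TR and stage was analysed, so that no value below has a spread between replicates and no difference between lists was tested. The lists were taken as those of merged replicates, which the study's methods describe, although each is recorded with the first ChIP replicate. Bulk cortex mixes many cell types, and a site bound in few cells cannot be told apart from a site bound weakly in many.

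Olfactory receptors are G protein-coupled receptors that detect odorants on the cilia of sensory neurons in the nasal epithelium. Each mature olfactory sensory neuron expresses a single receptor gene from a single allele, while all other receptor genes stay in compact heterochromatin. The genes sit in large tandem clusters, and outside the olfactory system nearly all of them are silent, so in cortex they can serve as a silent reference for peak calling.

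The sequences at the few peaks found in these promoters are shown first, because the counts below rest on them. Each is the 200 bases around the summit of the highest peak of the promoter, taken from GRCm38 on the strand of the gene and written 5′ to 3′, with CpG dinucleotides in capitals. In all 5 the highest peak was that of ARID1B at E18.5. The peak of Olfr325 reached into the promoter of a second TSS, but its summit lay 2031 bp upstream of that TSS, inside the gene body. The windows were chr15:98317379-98317578 (minus strand, Olfr285), chr6:41775842-41776041 (minus strand, Olfr459), chr11:58578683-58578882 (plus strand, Olfr325), chr9:39554046-39554245 (minus strand, Olfr958) and chr4:43711916-43712115 (minus strand, Olfr71).
Olfr285: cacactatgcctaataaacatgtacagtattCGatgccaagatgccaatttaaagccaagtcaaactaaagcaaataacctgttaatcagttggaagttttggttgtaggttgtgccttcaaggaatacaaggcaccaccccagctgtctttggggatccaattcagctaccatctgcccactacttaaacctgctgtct
Olfr459: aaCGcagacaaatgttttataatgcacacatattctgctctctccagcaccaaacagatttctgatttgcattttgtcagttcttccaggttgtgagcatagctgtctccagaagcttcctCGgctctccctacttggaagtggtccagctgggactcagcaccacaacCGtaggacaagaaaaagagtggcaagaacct
Olfr325: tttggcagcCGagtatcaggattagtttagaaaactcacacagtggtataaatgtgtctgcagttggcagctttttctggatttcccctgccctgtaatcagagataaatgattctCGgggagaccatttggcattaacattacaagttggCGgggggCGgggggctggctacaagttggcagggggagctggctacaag
Olfr958: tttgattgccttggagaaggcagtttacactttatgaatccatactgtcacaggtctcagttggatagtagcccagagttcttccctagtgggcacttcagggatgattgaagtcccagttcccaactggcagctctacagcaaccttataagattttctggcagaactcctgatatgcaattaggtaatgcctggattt
Olfr71: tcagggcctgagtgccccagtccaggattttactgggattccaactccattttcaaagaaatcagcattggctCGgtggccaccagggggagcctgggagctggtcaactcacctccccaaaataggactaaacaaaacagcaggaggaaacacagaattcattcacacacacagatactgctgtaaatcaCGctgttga
For comparison, the window at chr14:50930980-50931179 (minus strand) surrounds the FOXP1 summit at E15.5 in the promoter of Pip4p1, a phosphoinositide phosphatase gene inside an olfactory receptor cluster.
Pip4p1: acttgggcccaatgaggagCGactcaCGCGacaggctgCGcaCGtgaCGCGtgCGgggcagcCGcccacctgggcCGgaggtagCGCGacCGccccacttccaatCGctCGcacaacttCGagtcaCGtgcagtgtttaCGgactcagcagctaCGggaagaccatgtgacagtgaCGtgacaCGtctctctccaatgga
The windows of the 5 receptor genes held 0 to 4 CpG dinucleotides each (4 for Olfr325), and that of Pip4p1 held 21. Over all 67787 autosomal ARID1B summits at E18.5, the median was 3 CpG dinucleotides in 200 bases.

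Peaks were nearly absent from olfactory receptor promoters in every list. A promoter peak was found for 5 of 1087 genes with ARID1B at E15.5 (0.460%, 95% Wilson interval 0.197 to 1.07%), against a background of 60.9% of all autosomal protein-coding genes. With FOXP1 at E15.5, 4 genes had one (0.368%, 0.143 to 0.942%), against 63.4%. With TCF7L2 at E15.5, 1 gene did (0.0920%, 0.0162 to 0.519%), against 59.1%. At E18.5, ARID1B had a peak in the promoters of 5 genes (0.460%, 0.197 to 1.07%, background 59.4%). FOXP1 had one for 2 genes (0.184%, 0.0505 to 0.668%, background 56.7%), and TCF7L2 for 4 genes (0.368%, 0.143 to 0.942%, background 63%). These intervals and all others below cover counting error only, and tandem genes are not independent draws.

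The same few genes returned from list to list. In all, 5 genes had a promoter peak in at least 1 list, against 65.7% of all autosomal protein-coding genes, and 1082 had none. No gene had one in all 6 lists, which allows a share of up to 0.276% (3 counts of 1087), while 53.9% of all autosomal protein-coding genes did. Among the 19720 other autosomal protein-coding genes, the shares ran from 59.8% (FOXP1, E18.5) to 66.8% (FOXP1, E15.5). They were 136 (ARID1B, E18.5) to 678 (TCF7L2, E15.5) times those of the receptor genes, and the highest ratio rests on 1 receptor gene.

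The annotation of start sites bore on the number of genes. With the TSSs of RefSeq mRNAs, matched for 1085 of the 1086 symbols and a median of 2.74 kb from the first GENCODE TSS, 1 gene had a peak in at least 1 list. It was Olfr325. With promoters of 1000 bp there were 3 genes (without Olfr71 and Olfr325), and with 500 bp downstream of the TSS added there were 8 (with Olfr94, Olfr419 and Olfr1402). The share of all autosomal protein-coding genes was not recomputed under these definitions.

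**Figure D1:**
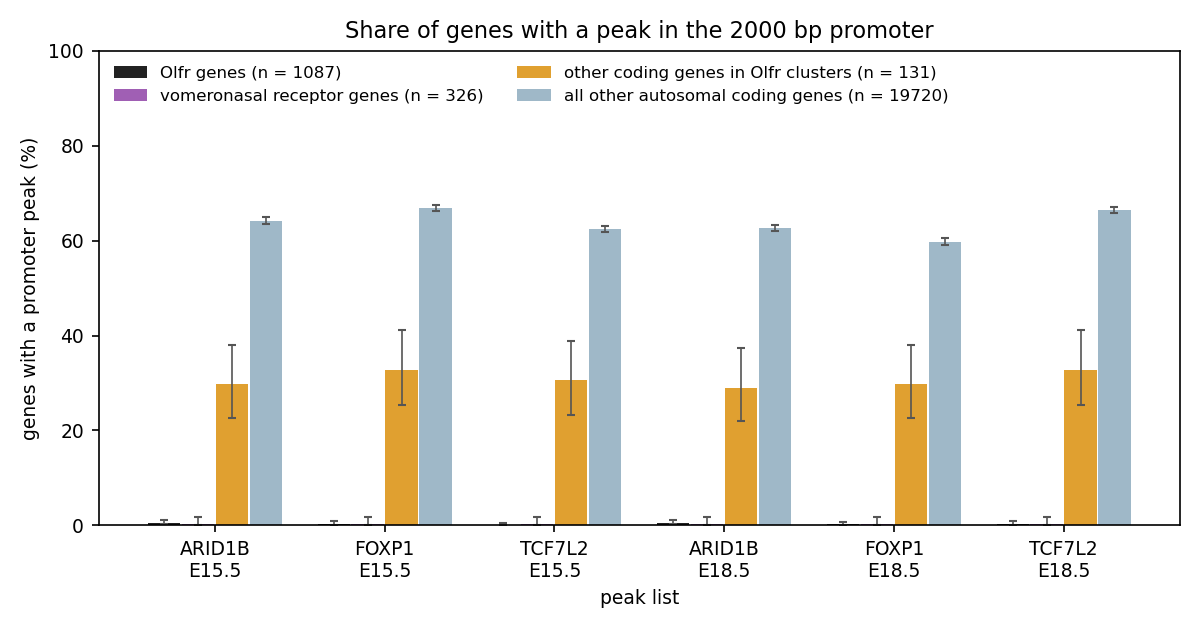
Share of genes (%, vertical axis) with at least 1 peak in the 2000 bp promoter in each of the 6 peak lists (horizontal axis), with bars for 4 groups of genes and 95% Wilson intervals. The bars of the olfactory receptor (Olfr) and vomeronasal receptor genes lie below 1% in every list, those of other coding genes inside the clusters between 29.01 and 32.8%, and those of all other autosomal coding genes between 59.8 and 66.8%.

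The lists were also read at 8 genes of cortical development. All 8, among them Emx1, Neurod2 and Pax6, had a promoter peak in 5 of the lists, and 6 of 8 had one with FOXP1 at E18.5, where Fezf2 and Eomes had none. Over all autosomal protein-coding genes the shares were 56.7 to 63.4%, so these counts alone do not tell cortex from another tissue. The FOXP1 list at E18.5 was the shallowest, with 26.3 M reads recovered for the smaller of its ChIP and input data, against 57.3 to 80.7 M for the other 5. Its lowest fold enrichment, reads at the summit divided by the background level, was 3.21, against 2.33 to 2.66 in the others. At E15.5 the FOXP1 folds of Fezf2 and Eomes were 6.20 and 5.19.

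The 5 genes with a promoter peak lay on 5 chromosomes. Olfr285 (chr15:98309203-98317353, minus strand), in a cluster of 9 receptor genes, had the highest enrichment. Its fold enrichment was 10.9 with ARID1B at E15.5 and 13.2 at E18.5, 5.70 with FOXP1 at E15.5, and 3.79 and 5.14 with TCF7L2 at E15.5 and E18.5. No FOXP1 peak was called there at E18.5. All 5 summits lay 50 to 125 bp upstream of its TSS. Both ARID1B peaks were among the highest promoter peaks of their lists, above 98.9% and 99.4% of all peaks in protein-coding promoters. The TCF7L2 peak at E15.5 exceeded only 15.4% of them.

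Olfr459 (chr6:41768770-41775177, minus strand) lay outside any cluster, 685 kb from the next receptor gene. Its fold enrichment was 9.44 and 10.4 with ARID1B at E15.5 and E18.5, 5.06 and 5.27 with FOXP1, and 3.50 with TCF7L2 at E18.5 only. The summits lay 764 to 827 bp upstream of the TSS. The ARID1B peaks again stood above most promoter peaks (98.0% and 97.9%), and the FOXP1 peaks below most (above 31.4% and 19.6%).

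Olfr325 (chr11:58577730-58582365, plus strand) had a fold enrichment of 5.26 and 7.29 with ARID1B at E15.5 and E18.5, 6.20 and 4.53 with FOXP1, and 3.72 with TCF7L2 at E18.5. This gene counted only because of a second TSS within it. The summits lay 1982 to 2117 bp upstream of that TSS, and 966 to 1101 bp downstream of the first TSS, in the transcribed part of the longer transcript.

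Olfr958 (chr9:39547958-39554054, minus strand), in a cluster of 93 receptor genes, had peaks 41 to 109 bp upstream of its TSS. Its fold enrichment was 5.35 and 6.03 with ARID1B at E15.5 and E18.5 and 3.29 with FOXP1 at E15.5, and no TCF7L2 peak was called. Olfr71 (chr4:43704562-43710255, minus strand) had the weakest peaks, with 2.77 and 3.79 for ARID1B at E15.5 and E18.5 and 2.85 for TCF7L2 at E18.5, and none for FOXP1. They lay 1602 to 1784 bp from the TSS. None of the peaks of these 5 genes overlapped the promoter or body of another annotated gene.

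All 5 genes had an ARID1B peak at both stages, so the genes with a peak in any list were those of each ARID1B list. FOXP1 had a peak at both stages in 2 genes and TCF7L2 in 1. Of all autosomal protein-coding genes, 58.3% had a peak at both stages with ARID1B, 56.6% with FOXP1 and 58.8% with TCF7L2. The ARID1B folds were above the median of all protein-coding promoter peaks in 4 of the 5 genes at both stages (medians 4.64 at E15.5 and 5.05 at E18.5). Each FOXP1 and TCF7L2 peak at these genes was below the median of its list. Those medians were 7.97 and 7.91 for FOXP1 and 5.67 and 5.36 for TCF7L2 at E15.5 and E18.5. Depth and antibody differed between the lists, and their part in this difference was not tested.

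**Figure D2:**
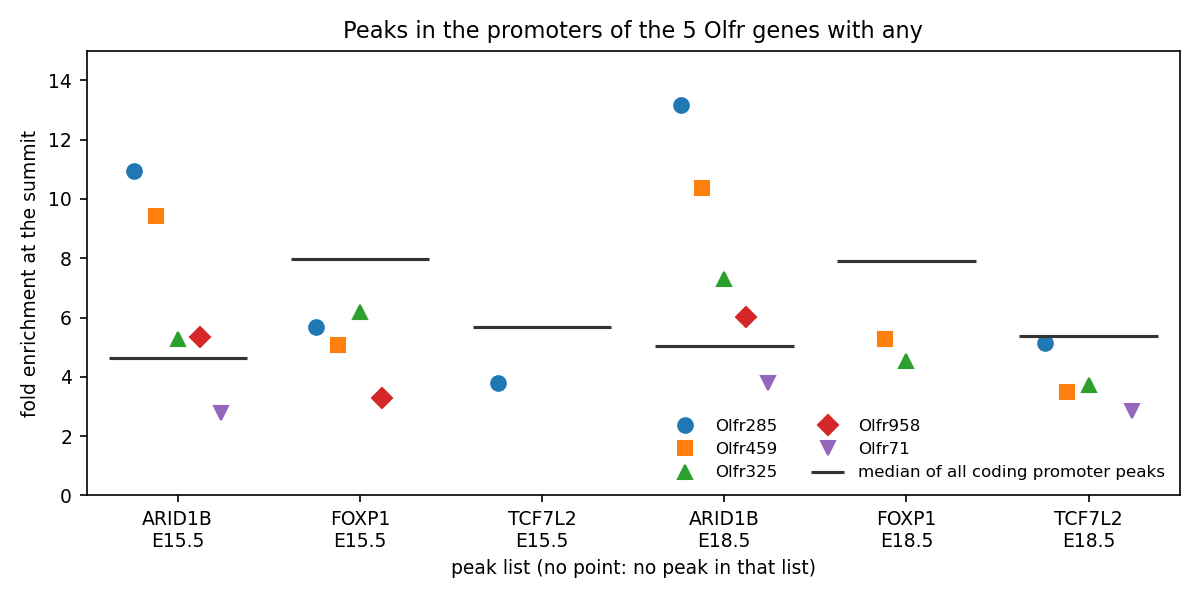
Fold enrichment at the summit (vertical axis, linear, from 0) of the promoter peaks of the 5 olfactory receptor genes that had any, by peak list (horizontal axis). Each symbol is 1 gene, a missing symbol means no peak, and the black line is the median of all peaks in protein-coding promoters of that list; ARID1B folds of Olfr285 and Olfr459 reach 9.44 to 13.2, whereas all FOXP1 and TCF7L2 symbols lie under the line.

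Sequence motifs were counted at these 5 windows and in all promoters, on both strands, as matches of letters only. The forkhead motif TGTTTAC, the TCF/LEF motif ATCAAAG, the homeodomain motif TAATTA and the EBF core CCCNNGGG were not in any of the 5 windows. They were found in 3.45%, 2.54%, 8.57% and 7.70% of the windows of all 67787 ARID1B summits at E18.5. The letters CCANNAGGG, a core of the CTCF motif chosen after the sequences were seen, were in the windows of Olfr71 and Olfr958 and in 4.35% of all those windows. The E-box CANNTG was in 4 of the 5 and in 73.7% of all.

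In the whole set of 2532 member promoter windows of 2000 bp, TAATTA was more common (71.8%) than in the 90310 windows of all protein-coding genes (37.8%). This palindrome is a core site of LIM homeodomain proteins such as LHX2, a regulator of olfactory receptor choice. TGTTTAC was found in 33.5% of member windows and 23.5% of all, and ATCAAAG in 35.3% and 26.3%. CCCNNGGG, a palindromic core of the EBF motif, was found in 23.1% and 43.7%. The AT-rich motifs were the more common ones in receptor promoters and the GC-rich one the less common, and the GC share of these promoters was lower (median 36.3%, against 46.9% for other autosomal protein-coding genes). Its part in these shares was not tested.

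Receptor promoters were poor in CpG dinucleotides. The ratio of observed to expected CpG had a median of 0.110 (quartiles 0.0839 to 0.140), against 0.298 (0.208 to 0.404) for other autosomal protein-coding genes, and the GC share was lower as well. Because peaks of all lists were frequent at CpG-rich promoters, the genes were compared again below a common limit, the 90th percentile of the receptor genes (a ratio of 0.178). Below it, 3 of 978 receptor genes had a peak in at least 1 list (0.307%, 0.104 to 0.898%), against 378 of 3610 other genes (10.5%, 9.51 to 11.5%). Above it, the counts were 2 of 109 receptor genes (1.83%, 0.505 to 6.44%) and 13295 of 16110 others (82.5%, 81.9 to 83.1%). Per list, the other CpG-poor genes had peaks at 4.57% (FOXP1, E18.5) to 8.31% (FOXP1, E15.5), and the CpG-poor receptor genes at 0.102 to 0.307%. The shares of receptor genes were lower within both classes of CpG content. Within a class the genes were not matched for the ratio, and its part in the shares was not tested.

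**Figure D3:**
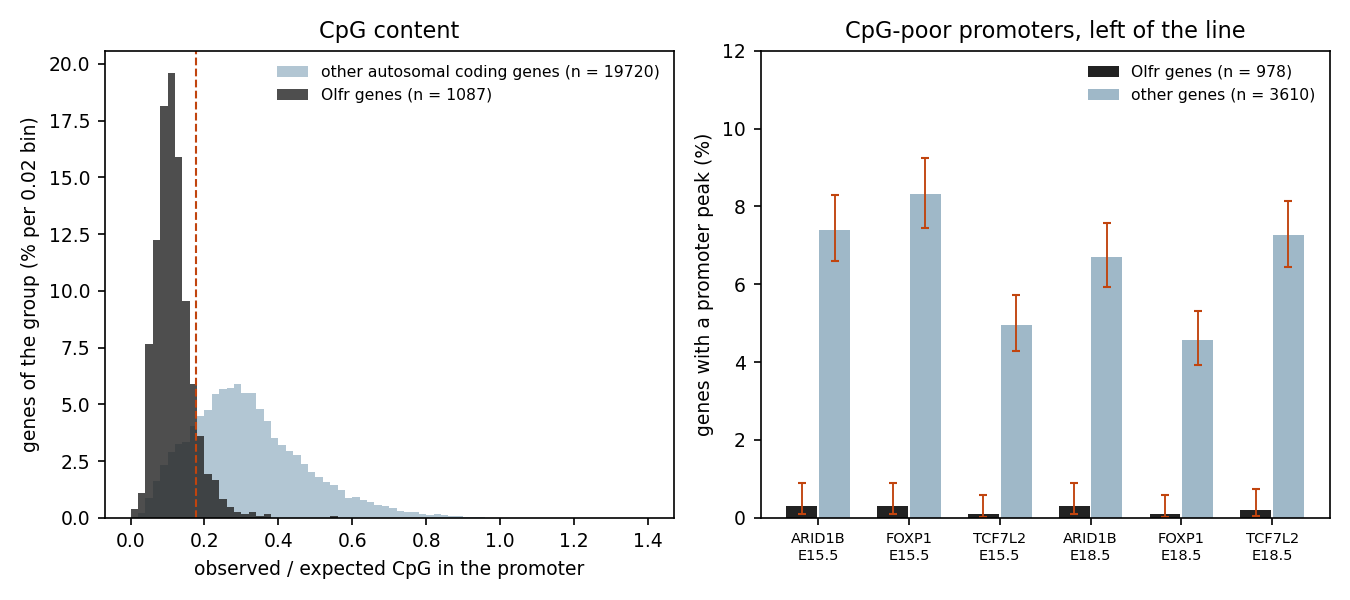
Left, distribution of the observed to expected CpG ratio of promoters (horizontal axis) as percent of genes per bin (vertical axis) for 1087 olfactory receptor genes (dark) and 19720 other autosomal coding genes (light), with a dashed line at 0.178. Right, percent of genes left of that line with a promoter peak in each list, with 95% Wilson intervals, where receptor genes lie between 0.102 and 0.307% and other genes between 4.57 and 8.31%.

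Tandem copies can lose reads that map equally well to several places, since reads were kept only above a mapping quality. Of the 50-base windows in receptor promoters, a median of 97.1% occurred once in the genome, against 98.3% in other promoters. At least 90% of windows were unique for 862 of 1087 receptor genes (79.3%) and for 87.3% of other genes, and only 15 receptor genes had under 50%. Among the 862, 4 genes had a peak in at least 1 list (0.464%, 0.181 to 1.19%), against 12972 of the 17221 other genes with such promoters (75.3%, 74.7 to 76.0%). Olfr459, with 89.8% unique windows, fell just outside.

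Other chemoreceptor families had hardly any promoter peaks either. Of 326 vomeronasal receptor genes, which detect pheromones, only Vmn1r4 had a promoter peak, in all 6 lists (fold enrichment 5.97 to 13.4), and that peak was shared with the promoter of Nt5c3, a nucleotidase gene. Their promoters were less unique, with a median of 86.3% of windows occurring once and a lower quartile of 39.2%, and the part of this in the count was not tested. None of 15 trace amine-associated receptor genes and none of 35 bitter taste receptor genes had a peak. These counts of 0 allow shares of up to 20% and 8.57% (3 counts of each family). Of 312 further genes with Olfr names, mostly pseudogenes, only Olfr1401-ps1 on chromosome 5 had one, in all lists but FOXP1 at E18.5, with fold enrichments of 2.85 to 4.68.

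Receptors used as models of receptor choice had no peak. Olfr17 (P2), Olfr1507 (MOR28), Olfr160 (M72), Olfr16 (MOR23), and Olfr78, which is also expressed outside the nose, had none in any list. Neither did Olfr151 (M71), a polymorphic pseudogene in GENCODE vM21 and so outside the 1087.

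Of a list of 22 genes of olfactory signal transduction and receptor choice, 14 (63.6%) had a promoter peak in all 6 lists, against 53.9% of all autosomal protein-coding genes, and 16 (72.7%) had one in at least 1 list, against 65.7%. The list was then read by role, a division made after values were seen. Of its 11 transcription factors and chromatin regulators, 10 had a peak in all 6 lists. They were Lhx2 (fold enrichment 6.41 to 11.8 over the lists), Ldb1 (6.95 to 13.4), Ebf2, Ebf3, Ebf4, Emx2, Kdm1a, a histone demethylase, Lbr, a nuclear lamina protein gene, Atf5 and Cbx5. Lhx2 and Emx2 also act in cortical progenitors. The eleventh, Ebf1, had peaks in 4 lists of 3.37 to 5.04. Of the 11 genes whose products transduce the odorant signal or carry receptors to the surface, 4 had a peak in all 6 lists, 1 in 4 lists and 6 in none. The 4 were Gnal and Adcy3, the G protein and cyclase of the olfactory cascade that are also used in brain, Ric8b (5.98 to 16.1), which acts on that G protein, and Reep1 (4.37 to 10.3), a receptor transport protein gene. Cngb1, a channel subunit, had peaks in 4 lists of 2.74 to 3.66. Those without a peak were Cnga4 (a subunit of the same channel), Ano2 (a chloride channel), Omp (olfactory marker protein), Stoml3, Rtp1 and Rtp2 (receptor transporters).

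The distance from a receptor gene to the nearest summit of a list was long. Its median over receptor genes was 307 kb (FOXP1, E15.5) to 365 kb (TCF7L2, E15.5), against 0.134 to 0.194 kb for other autosomal protein-coding genes. A summit lay within 10 kb of a TSS for 37 receptor genes (3.40%) with FOXP1 at E15.5 and for 10 (0.920%) with TCF7L2 at E15.5, the highest and lowest counts of the 6 lists. For other genes this share was 67.7 to 76.0%.

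Summits lay in the bodies of 10 receptor genes (0.920%), among them Olfr325, against 68% of all autosomal protein-coding genes. Receptor genes are shorter (median 5.98 kb, against 19.3 kb for other autosomal protein-coding genes). Per Mb of gene body, the lists had 0 to 0.689 summits in receptor genes and 14.1 to 39.8 in the other genes. Apart from Olfr325, 4 of these genes had summits in 2 or more lists (Olfr56, Olfr62, Olfr70 and Olfr750, fold enrichment 3.07 to 3.93). Those of Olfr56 lay 125 kb downstream of its first TSS, in a long annotated gene body. The highest peak was 1 of FOXP1 at E18.5 in Olfr1341 (7.62), 9.72 kb downstream of its first TSS. This peak had no counterpart in the other 5 lists.

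Receptor genes at most 500 kb apart were joined into 43 clusters of at least 2, which held 1078 of the 1087 genes, and 9 genes stood alone. In 23 of the 43 clusters there was no summit of any list. The largest cluster (chr2:85330779-90292841) held 217 receptor genes in 4962 kb and 1 summit in the 6 lists together, of FOXP1 at E18.5 (fold enrichment 3.94). It lay between genes, 17.8 kb from the TSS of Olfr996. The second largest (chr7:102476579-105369355), with the class I receptor genes around the beta-globin genes, held 124 receptor genes and 1 to 3 summits per list. All of them lay at 1 site between genes or around the TSS of Trim68, a ubiquitin ligase gene. The third (chr9:37708964-40190134) held 93 receptor genes, Olfr958 among them, and 3 to 6 summits per list. The chromosome 10 cluster of 58 receptor genes (chr10:128989431-130214403) had no summit in any list.

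Other protein-coding genes inside the clusters were not as bare as their neighbors. Of 131 such genes, 45 (34.4%, 26.8 to 42.8%) had a promoter peak in at least 1 list, against the 65.7% of all autosomal protein-coding genes, and 34 (26.0%) had one in all 6, against 53.9%. The 8 of these with the highest fold enrichment were Pip4p1 and Pnp, which share a peak, Hnrnpc, an RNA-binding protein gene, Osbp, Patl1, Mgat1, and Rab2b and Tox4, which share a peak. FOXP1 at E15.5 gave the highest fold enrichment at each, from 13.8 at Rab2b and Tox4 to 19.997 at Pip4p1 and Pnp. In the same list the 4 peaks of receptor promoters ranged from 3.29 to 6.20, so that peaks higher than these occurred inside receptor clusters at the promoters of other genes. For the highest ARID1B peaks the order was the reverse. Among the other cluster genes they reached 8.46 at E15.5 and 7.43 at E18.5 (Rab2b and Tox4), against 10.9 and 13.2 at Olfr285.

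Between the genes of the clusters, in 17.1 Mb outside every annotated gene body and promoter, the density of summits was low. ARID1B had 3.05 summits per Mb at E15.5 (95% Poisson interval 2.28 to 4.00) and 2.76 at E18.5 (2.03 to 3.67), against 18.2 and 17.0 over all 1176 Mb of autosomal sequence between genes. FOXP1 had 2.82 (2.08 to 3.73) and 1.76 (1.19 to 2.51), against 15.54 and 4.19. TCF7L2 had 1.70 (1.14 to 2.44) and 2.11 (1.48 to 2.92), against 5.28 and 10.1. The autosomal density was therefore 2.38 (FOXP1, E18.5) to 6.17 (ARID1B, E18.5) times that of the clusters. With only peaks of a −log10 p of at least 15, however, FOXP1 at E18.5 had 0.821 summits per Mb in the clusters and 0.611 over the autosomes, so that the order turned. Of the 50-base windows, 77.1% were unique between cluster genes and 86.4% between genes of all autosomes, and the part of this in the densities was not tested.

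The summits between cluster genes fell into 66 loci, defined as unions of overlapping peaks, and 27 clusters had none. Of the 66 loci, 18 (27.3%) had peaks in all 6 lists, against 7.80% of the 29443 autosomal loci between genes, and 20 had a peak in 1 list. Most of the loci with all 6 lists were close together. A cluster on chromosome 13 (chr13:21069334-21706833) with only 12 receptor genes held 20 of the 66 loci and 11 of the 18 with all 6 lists.

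Many of these loci were tRNA genes, which RNA polymerase III transcribes and of which the nuclear ones are not among the genes of GENCODE vM21. With the tRNA genes of the RefSeq annotation, a comparison added after the peaks were seen, 19 of the 66 loci overlapped a tRNA gene, and so did 14 of the 18 with all 6 lists. Of all 29443 autosomal loci between genes, 94 did (0.319%), and of the 2297 with all 6 lists, 59 did (2.57%). Of the 20 loci of the chromosome 13 cluster, 14 did. Of the strongest peaks between cluster genes, all from FOXP1 at E15.5, 4 lay on tRNA genes. They were at chr13:21159918-21161783 (fold enrichment 12.4), chr13:21169173-21170671 (11.5), chr13:21199745-21200955 (10.9) and chr14:51064389-51066124 (10.8). Next came 2 with an equal fold of 9.87, of which chr19:12009435-12012640 lay on tRNA genes and chr13:21408147-21409145 did not. Of the 37 tRNA genes inside receptor clusters, 29 (78.4%, 62.8 to 88.6%) overlapped a peak in at least 1 list, as did 194 of the 349 tRNA genes elsewhere on the autosomes (55.6%, 50.3 to 60.7%). In all 6 lists the shares were 37.8% (24.1 to 53.9%) and 38.7% (33.7 to 43.9%).

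Without tRNA genes and 500 bp on either side, the densities fell to 2.12, 1.70 and 0.529 summits per Mb at E15.5 for ARID1B, FOXP1 and TCF7L2 in turn, and to 1.65, 0.705 and 0.823 at E18.5. The autosomal densities, with tRNA genes left out in the same way, were 5.84 (FOXP1, E18.5) to 12.2 (TCF7L2, E18.5) times as high. With tRNA genes left out and a −log10 p of at least 15, FOXP1 at E18.5 had 0.118 summits per Mb in the clusters and 0.562 over the autosomes. Where clusters were cut at gaps above 100 kb, 57 tighter clusters held 1069 of the 1087 receptor genes, and 25 of the 66 loci remained inside them. None of the 25 was at a tRNA gene and 1 had peaks in all 6 lists. The densities in these tighter clusters were 0.203 (TCF7L2, E15.5) to 1.15 (ARID1B, E15.5) per Mb. The 1 locus with all 6 lists lay at chr4:43720075-43720950, 10.2 kb from the TSS of Olfr71, with fold enrichments of 7.13 and 7.71 for ARID1B, 4.43 and 4.38 for FOXP1, and 3.79 and 4.05 for TCF7L2 at E15.5 and E18.5. Olfr71, among the 5 genes with a promoter peak, was the receptor gene nearest to this locus. The TSS of Hrct1 (chr4:43727188-43728639, plus strand), which is no receptor gene, lay nearer to its summit at chr4:43720467. Hrct1 had a promoter peak in 1 list, TCF7L2 at E18.5 (fold enrichment 3.28). A locus 3.80 kb from the TSS of Olfr958 (chr9:39557711-39558334) had 4 lists, with 4.90 and 5.61 for ARID1B and 3.67 and 4.82 for FOXP1.

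**Figure D4:**
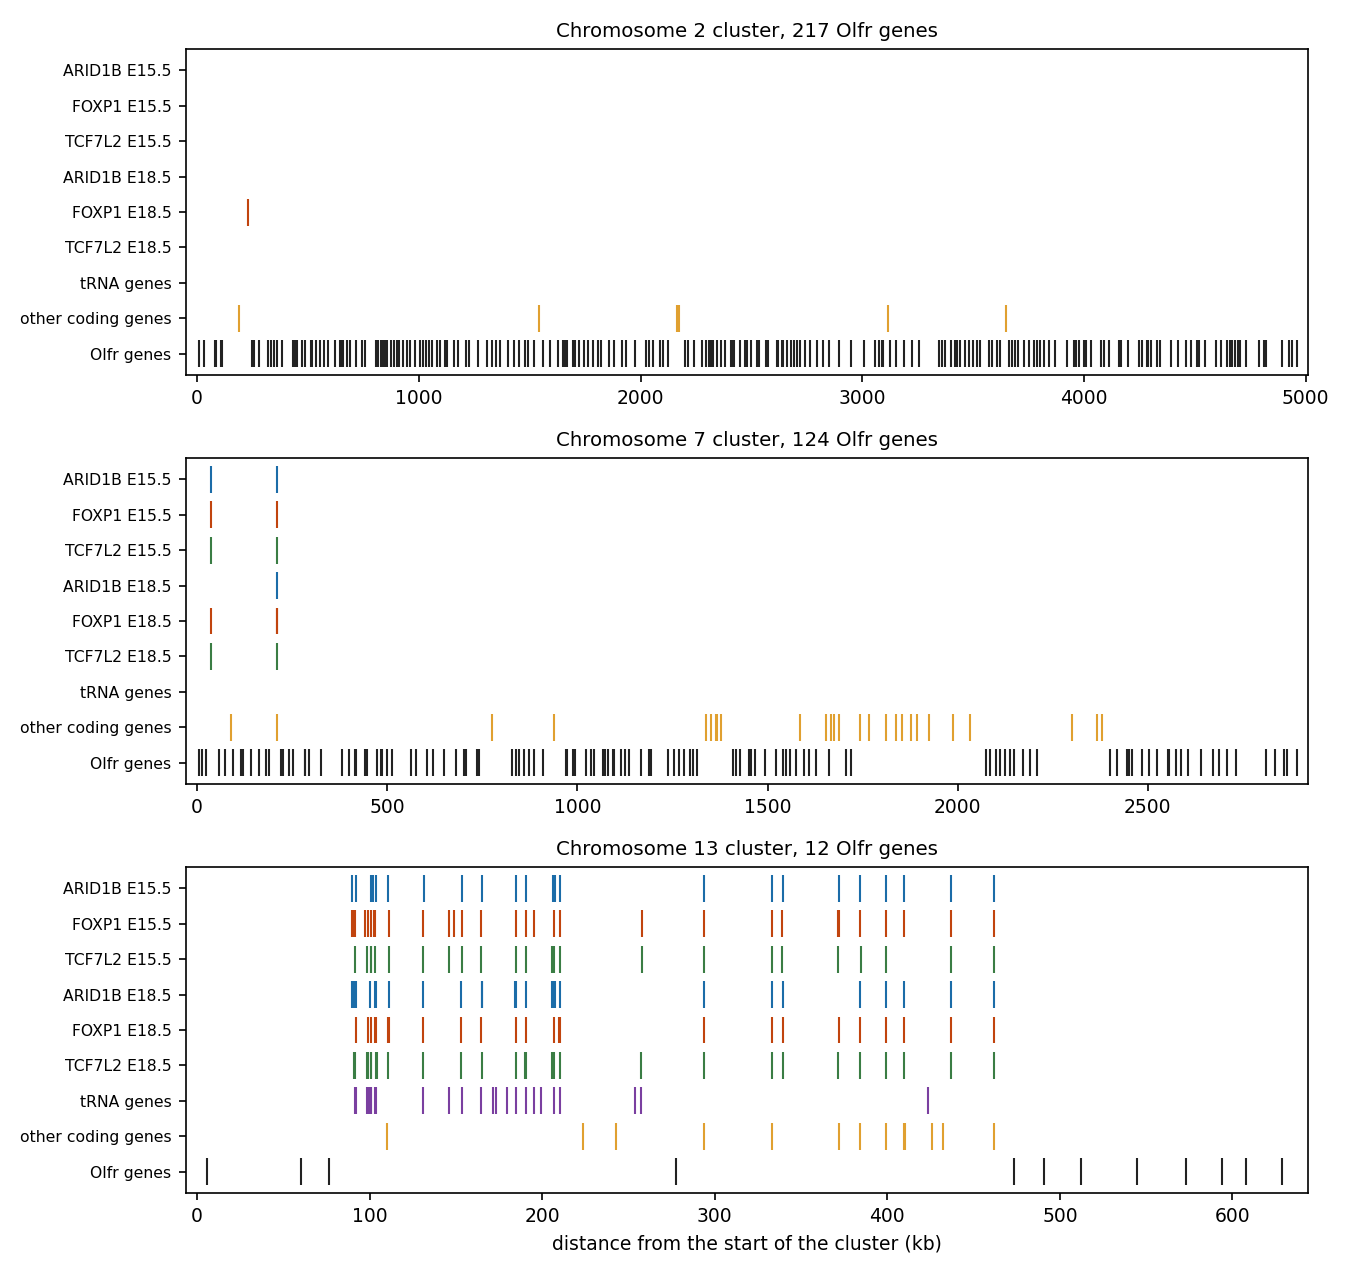
Positions along 3 receptor clusters as distance from the cluster start (kb, horizontal axis), with a row of ticks for the summits of each peak list and rows for tRNA genes, TSSs of other coding genes and TSSs of olfactory receptor (Olfr) genes. The chromosome 2 cluster with 217 receptor genes has 1 summit, the chromosome 7 cluster with 124 has 1 to 3 per list, and in the chromosome 13 cluster with 12 the summits lie in the middle, away from most receptor genes, with 14 of its 20 loci between genes at tRNA genes.

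**Figure D5:**
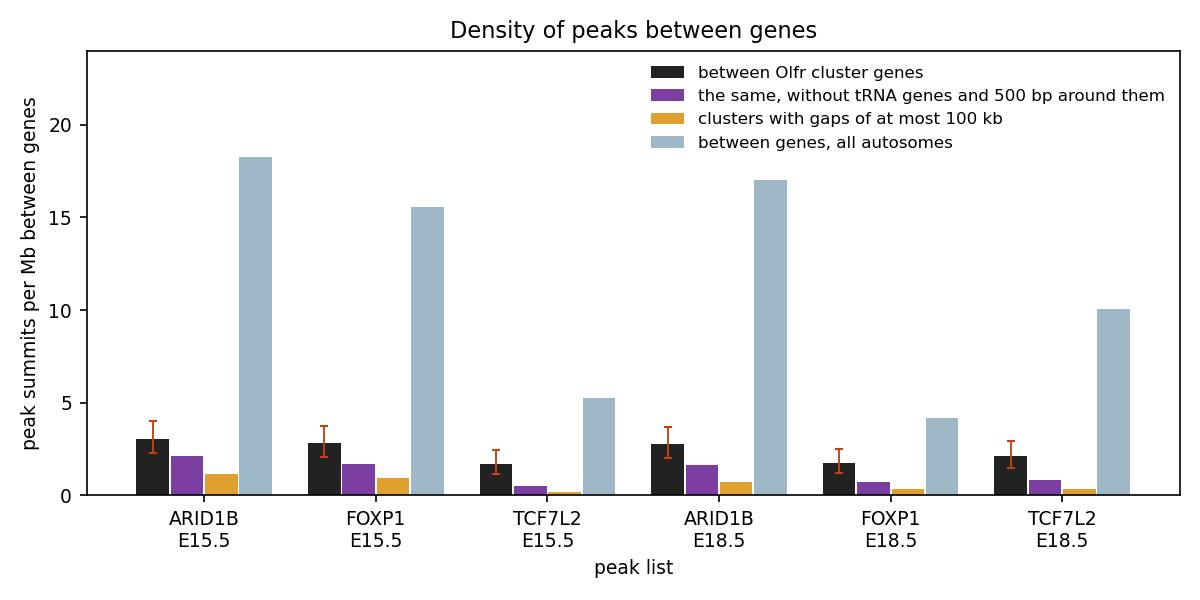
Peak summits per Mb of sequence between genes (vertical axis) in each list (horizontal axis), for receptor clusters with their 95% Poisson intervals, for the same without tRNA genes and 500 bp around them, for clusters cut at gaps above 100 kb, and for all autosomes. In every list the cluster bars (0.203 to 3.05) lie below the autosomal bar (4.19 to 18.2), and both narrower definitions of the clusters lower them further.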

How the data were processed

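The authors aligned the reads with BWA 0.7.15 to mm10 (GRCm38), applied a mapping quality limit with SAMtools, and ran MACS2 2.2.7 with input as control, on merged biological replicates and with a constant background, per the labels and the study's methods (each list is recorded with the first ChIP replicate). In each deposited list, the fold enrichment is a ratio of summit reads over background reads. Each deposited −log10 p-value and −log10 q-value belongs to the summit, and the deposited score, which MACS2 scales from the q-value, was not used. The offset of the summit was. Peaks were counted from 1 as given. No replicate or input file entered the analysis.

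Genes and TSSs came from GENCODE vM21 (the authors used another release), tRNA genes and other TSSs from RefSeq. A gene had a promoter peak when a peak overlapped the 2000 bp upstream of any of its TSSs by at least 1 base. Clusters joined genes at most 500 kb apart. Sequence between genes was free of gene bodies, promoters and assembly gaps. A 50-base window was unique when it occurred once on both strands. Depth was recovered from the Poisson relation of fold and p. Overlap counting, window uniqueness and depth recovery were tested on simulated data. Shares have Wilson intervals and densities exact Poisson intervals, at 95%. No test was run, because only the peak lists were analysed, 1 for each TR and stage. Python 3.11.15, numpy 2.4.6, pandas 2.3.3, scipy 1.17.1 and pysam 0.24.0 were used.

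The genes, lists and comparisons were chosen with earlier results of these data known. The genes named were the 5 receptor genes with a peak, 6 receptors known from studies of receptor choice, the 8 other cluster genes with peaks in the most lists (ties by the highest fold enrichment), the 5 strongest peaks between cluster genes (6 with a tie), the 3 largest clusters and the listed gene groups (2 genes of the list for the tissue check are not reported here). Vmn1r4, Olfr1401-ps1, the genes of gene body peaks, and the loci beside Olfr71 and Olfr958 were otherwise chosen after values were seen. So were Trim68, Sall2, Hrct1, the chromosome 10 and 13 clusters, the tRNA genes and the CTCF and E-box letters. The alternatives tried were a stricter p, 3 other promoter definitions, summits only, other TSSs, exclusion of shared or repetitive promoters, other cluster gaps, and other definitions of sequence between genes.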

Additional observations from a re-analysis of the deposited data

How the results depend on the processing

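Of 64 counts of receptor genes recomputed under another setting, 46 stayed within 1.5 times the reported count. The count of genes with a peak in all 6 lists was 0 under each of the 8 settings. It could rise only with 500 bp downstream added or with RefSeq TSSs, because the other settings only left out peaks, promoter sequence or genes. Those fixed values of 0 are among the 46. Of 42 densities between cluster genes, 12 stayed within the Poisson interval of the reported value. With only peaks of a −log10 p of at least 15, the genes with a peak were 0 for TCF7L2 at E15.5, 0 for FOXP1 at E18.5 and 1 for TCF7L2 at E18.5. With 1000 bp promoters they were 3 for ARID1B at each stage, 2 for TCF7L2 and 1 for FOXP1 at E18.5, and 3 in at least 1 list. With 500 bp downstream added they were 8 in at least 1 list. With the most upstream TSS alone, or with the 862 genes of mostly unique promoters alone, FOXP1 at E18.5 had 1. With RefSeq TSSs, a setting chosen after seeing the data, 1 gene remained in at least 1 list (1 in each list, 0 for TCF7L2 at E15.5).

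In the order ARID1B, FOXP1 and TCF7L2 at E15.5, then the same at E18.5, the summits per Mb between cluster genes were 1.06, 1.64, 0.469, 0.704, 0.821 and 0.645 under that stricter p. They were 1.15, 0.947, 0.203, 0.744, 0.338 and 0.338 with cluster gaps of at most 100 kb. In settings chosen after seeing the data, they were 2.12, 1.70, 0.529, 1.65, 0.705 and 0.823 outside tRNA genes, and 0.705, 0.588, 0, 0.705, 0.118 and 0.0588 outside tRNA genes under the stricter p. They were 2.22, 1.68, 0.780, 1.68, 0.960 and 1.02 without the chromosome 13 cluster. The autosomal density was above that of the clusters under each setting and list except FOXP1 at E18.5 with a −log10 p of at least 15, where it was 0.744 times as high, and the cause was not tested.

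No paired analysis was possible because only the peak lists were analysed, 1 for each TR and stage, and no result comes from a test, and for the same reason no replicate was left out. The lowest fold enrichment in a list was 2.33 (ARID1B, E15.5) to 3.21 (FOXP1, E18.5), and weaker binding was not detectable at this depth. Peak counts in lists of different depth are not comparable as levels of binding.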

Other observations

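Among the 47 loci between cluster genes that were not at a tRNA gene, 4 had peaks in all 6 lists (8.51%) and 19 had a peak in 1 list (40.4%). Of all 29443 autosomal loci between genes, tRNA genes included, the shares were 7.80% and 33.9%. Besides those at chr13:21408147-21409145 and chr4:43720075-43720950, the loci with all 6 lists lay at chr14:50969326-50970559 (105 kb from the TSS of Olfr750) and chr14:52310702-52311443 (45.3 kb from the TSS of Olfr1513). The last ran into the gene body of Sall2 (chr14:52311172-52328762, minus strand), a gene with a promoter peak in all 6 lists. This locus had fold enrichments of 7.84 and 8.13 with ARID1B, 4.94 and 4.24 with FOXP1, and 4.31 and 3.72 with TCF7L2 at E15.5 and E18.5. On chromosome 10, a locus at chr10:78727762-78728455, 110 kb from the TSS of Olfr1357, had fold enrichments of 9.26 and 9.54 with ARID1B, 6.20 with FOXP1 at E15.5 and 2.96 with TCF7L2 at E18.5. These loci were chosen after their values were seen.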
